A study of Mus musculus with 4 samples.

Results

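The nuclear-encoded subunits of the oxidative phosphorylation (OXPHOS) complexes were examined in cultured mouse spermatogonia. Members were the genes of the deposited table whose symbol begins with Nduf followed by a, b, c, s or v and a digit, is Sdha, Sdhb, Sdhc or Sdhd, or begins with Uqcr, Atp5 or Cox followed by a digit from 4 to 8, leaving out symbols that contain "-ps". The rule took 89 of 55421 genes, which carry 88 distinct symbols because Atp5o has 2 entries. They comprised 40 genes of complex I, 4 of complex II, 8 of complex III, 19 of complex IV and 18 of complex V. The annotation (GENCODE M21, GRCm38) calls 85 of them protein coding and 4 processed pseudogenes, and 3 lie on the X chromosome.

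RNA was measured in spermatogonial stem cell (SSC) cultures established from testes of neonatal CD1 pups and grown on a layer of irradiated mouse embryonic fibroblast (MEF) feeder cells. The labels give the culture medium as holding N2 supplement and 10 ng/ml of each of the growth factors bFGF and GDNF, whereas the recipe in the study's supplement gives a higher GDNF concentration. The Veh group stayed in complete SSC medium, and the NRRA group was given a nutrient restriction medium, mostly Earle's balanced salt solution, which lacks amino acids, together with retinoic acid (RA). By the study's recipe that salt solution replaced most of the SSC medium, so the supplement and the growth factors would be diluted along with the nutrients. The labels, however, give the same growth factor concentrations for both groups. The effects of any such dilution and of the loss of nutrients cannot be told apart. There were 2 libraries per group, and the comparison asks how the cultures respond to NRRA. With no library of either agent alone, nutrient restriction and RA cannot be told apart. The study's reporting summary calls its sequencing replicates biological and independent, without naming libraries. No label ties these 4 libraries to a culture or animal, so their p-values cover only the spread seen among them.

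OXPHOS is the process by which the inner mitochondrial membrane turns the energy of reduced cofactors into ATP. Complexes I and II pass electrons from NADH and succinate to ubiquinone, complex III passes them on to cytochrome c and complex IV to oxygen, and complex V, the ATP synthase, uses the proton gradient that complexes I, III and IV build. Most subunits are encoded in the nucleus and a few core ones in mitochondrial DNA, and some nuclear subunits of complex IV come in isoforms that are specific to muscle, lung or testis. In the testis, spermatogonia rely largely on glycolysis and later germ cells more on mitochondrial respiration.

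Promoter windows of the members are shown first, because genes of this pathway are known as targets of the factors NRF1, GABP (an ETS family factor) and YY1. RefSeq windows on GRCm38.p6, from 250 bases before to 50 bases after an annotated start site, were at hand for 68 of the 88 symbols, and 5 of these had more than 1 window. The ETS core CCGGAAG, on either strand, was present for 17 of the 68 members (25%), and for 9.93% of 27025 genes with such windows. By complex, the core was present for 4 of 32 genes with a window in complex I, 2 of 3 in complex II and 2 of 5 in complex III. In complex IV it was present for 3 of 13, and in complex V for 6 of 15. The matches of these 6 genes are printed as 10 bases on each side of the core, on the strand of the gene, with the core or its reverse complement in capitals. This complex is shown because 13 of its subunits were lower in NRRA (below), and no site or cause follows from a match.
Atp5e, chr2:174464187-174464213, minus strand: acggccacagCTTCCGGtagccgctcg
Atp5h, chr11:115419941-115419967, minus strand: aaggagagaaCTTCCGGcaactctctt
Atp5j, chr16:84835021-84835047, minus strand: gctgagggacCCGGAAGcacttaccct
Atp5k, chr5:108434371-108434397, minus strand: ctcagttgagCTTCCGGcgcgaaggtc
Atp5l, chr9:44920702-44920728, minus strand: gccgcgggtcCTTCCGGgggtgacatt
Atp5l, chr9:44920938-44920964, minus strand: cttcaccgatCTTCCGGaccaacatga
Atp5md, chr19:47090629-47090655, minus strand: gagggggcgtCTTCCGGtcgggccgag

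The NRF1 motif, whose reverse complement is in capitals below for Uqcrc1, was found on either strand for 2 members, Uqcrc1 and Atp5g2 (2.94%, and 0.688% of all genes with windows). The match of Uqcrc1 is shown because the gene fell in NRRA and belongs to the core of complex III. The YY1 motif, in capitals below for Ndufs7, was found on either strand for 5 members, Atp5j, Ndufa9, Ndufs4, Ndufs6 and Ndufs7 (7.35%, and 0.995% of all genes with windows). That of Ndufs7 is shown because it is the only gene of these 5 that passed the test. Among the 17 members with the ETS core, 4 were higher and 8 lower in NRRA by the test described below, beside 27.9% and 28.4% of all genes tested.
Uqcrc1 with the NRF1 motif, chr9:108936668-108936697, plus strand: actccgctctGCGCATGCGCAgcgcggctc
Ndufs7 with the YY1 motif, chr10:80249463-80249492, plus strand: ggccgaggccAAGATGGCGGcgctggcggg

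The counts assigned to genes ranged from 28022265 to 31604769 per library, and the floor was set at 3 counts, or 0.0921 to 0.111 CPM (counts scaled to a common, TMM-adjusted library size). The floor covers counting error only, whereas the 95% intervals of fold changes below come from the edgeR fit and include the spread between libraries. As a check of the treatment, Stra8, which RA induces before meiosis, had 261 and 300 counts under Veh and 60702 and 55775 under NRRA, and Cyp26a1, which encodes an RA-degrading enzyme, and Rec8, a meiotic cohesin gene, had log2 fold changes of 8.14 and 2.83. Of 12 germ cell markers, 11 were tested by the test described below, and 5 rose and 5 fell (45.5% each). Of all genes tested, 27.9% rose and 28.4% fell. The markers ran from Sycp3, of the synaptonemal complex (log2 fold change 1.40), to the stem cell gene Dppa3 (-6.94), and Ddx4 had 7403 to 8822 counts. All 25 fibroblast markers were found in every library, and their summed level was 12889 and 12756 CPM in Veh and 9825 and 9595 CPM in NRRA. Of these, 21 (84.0%) fell and 2 (8.0%) rose, from Timp1 (-1.52) to Pdgfra (0.98), beside 28.4% and 27.9% of all genes tested. Of 8 Sertoli markers, 5 were tested, and the list summed to 38.0 and 42.4 CPM in Veh and 21.2 and 21.5 CPM in NRRA. Sox9 fell by a log2 fold change of -1.59 and Inha rose by 0.53, Wt1, Gata4 and Dhh were not called, Cldn11 had 1 to 13 counts per library and Amh and Rhox5 had 1 to 3. Of 6 Leydig markers, 2 were tested, and the list summed to 7.56 and 7.97 CPM in Veh and 9.58 and 9.23 CPM in NRRA. Star rose by a log2 fold change of 0.31, Cyp17a1 was not called (-0.075), Cyp11a1 had 4 to 10 counts per library, Insl3 0 to 6, and Hsd3b1 and Lhcgr 0 or 1. The calls of Inha and Star were lost in DESeq2. How far a change in the share of feeder cells contributed to the differences between groups was not tested, and in such bulk samples fewer cells of a type and less RNA per cell cannot be told apart.

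Among the OXPHOS subunits, 84 passed the filter on low counts and were tested (edgeR quasi-likelihood test over all 20232 genes that passed, Benjamini-Hochberg adjusted p under 0.05). In NRRA 13 were higher, 36 were lower and 35 were not called. Thus 58.3% of the members were called, beside 56.4% of all genes tested, 15.5% higher beside 27.9% and 42.9% lower beside 28.4%. The members are abundant, with a median log2 CPM of 5.93, and the 68 whose mean log2 CPM was at least 5 had 60.3% called, beside 76.2% of all genes at that level. Their shares higher and lower were 16.2% and 44.1%, beside 34.5% and 41.6%. The changes were small, since 44 of the 49 called members differed by less than 1.5-fold and 2 by at least 2-fold.

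The median log2 fold change over the tested members was -0.090, beside 0.0003 over all genes, and the members summed to 7647 and 7699 CPM in Veh and 7075 and 7028 CPM in NRRA, a ratio of 0.919 beside 0.940 for the sum of all genes and 0.932 for that of genes whose mean log2 CPM was at least 5. The lower share of the members depends on the scaling of the libraries, because with library size only 26 were higher, 23 were lower (beside 34.4% and 22.7% of all genes) and the median was -0.0005, and the median of all genes then moved to 0.090. By complex, the medians were -0.031 for complex I, -0.029 for complex II, -0.056 for complex III, -0.045 for complex IV and -0.24 for complex V. With library size only the medians of complexes I to IV turned positive, between 0.034 and 0.061, while that of complex V stayed below 0 at -0.15, as the plot of medians under 4 scalings shows.

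**Figure D1:**
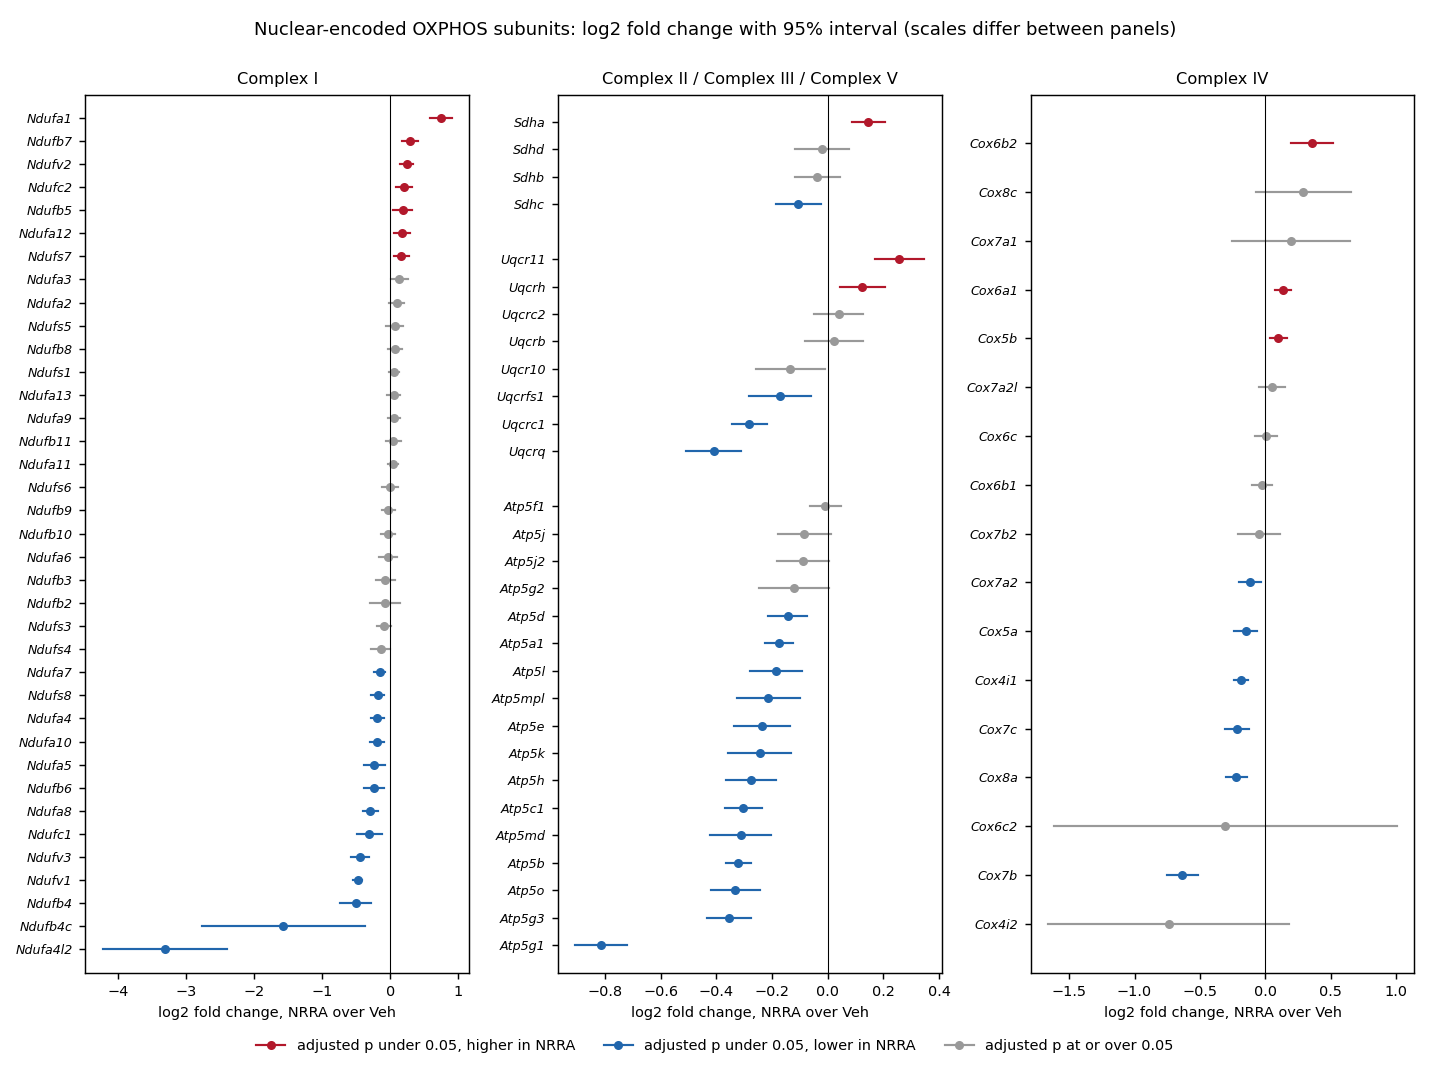
Log2 fold change of NRRA over Veh (x axis, scales differ between panels) for 83 of the 84 tested subunits, each row a gene, points the estimate and lines its 95% interval, with the colour giving the call. Complexes I to IV have members on both sides of 0, whereas all 17 tested genes of complex V lie below 0, 13 of them past the threshold.

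**Figure D2:**
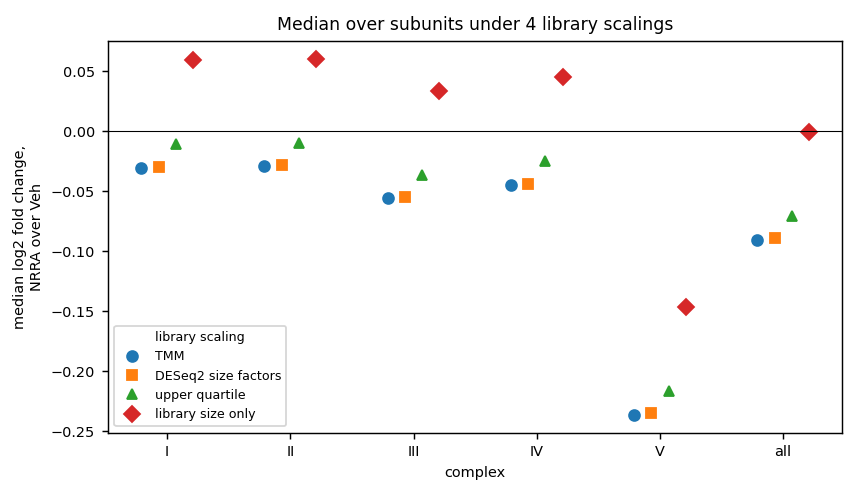
Median log2 fold change of NRRA over Veh (y axis) over the tested subunits of each complex and of all (x axis) under 4 scalings of the libraries, each a marker shape. With library size only the medians of complexes I to IV lie above 0, and that of complex V is below 0 under each of the 4.

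By symbol, complex I, the NADH dehydrogenase, had 7 genes higher, 13 lower and 18 not called of 38 tested. That is 18.4% higher and 34.2% lower, beside 27.9% and 28.4% of all genes tested. The 13 include the processed pseudogene Ndufb4c, and also Ndufa4, now assigned to complex IV, and its paralogue Ndufa4l2. The called genes of complex I moved in both directions in both the matrix arm and the membrane arm. With library size only, 17 were higher and 7 lower, beside 34.4% and 22.7% of all genes under that scaling. The largest rise was that of Ndufa1, a small accessory subunit needed for assembly (ENSMUSG00000016427, chromosome X, 37187588 to 37191163, minus strand). Its libraries had 15.4 and 15.2 CPM in Veh and 25.3 and 25.8 CPM in NRRA. The groups did not overlap and both NRRA libraries were above both Veh libraries, with a log2 fold change of 0.74 (edgeR adjusted p 6.00e-09, SE 0.077). The accessory subunit Ndufb7 followed with 33.3 and 32.0 CPM in Veh and 40.4 and 39.3 CPM in NRRA, a log2 fold change of 0.29 (SE 0.060). Ndufv2, an iron-sulfur subunit of the NADH-oxidising module, rose from 55.5 and 56.1 CPM to 68.1 and 63.9 CPM, a log2 fold change of 0.24 (SE 0.048). Ndufc2, Ndufb5, Ndufa12 and the core subunit Ndufs7 rose by log2 fold changes between 0.16 and 0.20. The DESeq2 alternative called none of these 4.

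Ndufv1, which holds the flavin and the NADH site and forms a dimer with Ndufv2, went the opposite way (ENSMUSG00000037916, chromosome 19, 4007384 to 4012806, minus strand). It had 194 and 193 CPM in Veh and 141 and 136 CPM in NRRA, a log2 fold change of -0.48 (edgeR adjusted p 1.04e-12, SE 0.032). Ndufv3, a small accessory protein of that module, fell likewise from 40.0 and 36.6 CPM to 27.8 and 28.2 CPM, a log2 fold change of -0.45 (SE 0.064). The groups did not overlap for any of the 3, so among the 3 Ndufv genes 2 were lower and 1 higher. Over the 7 nuclear core subunits, which carry the redox centres, 2 were higher, 2 lower and 3 not called. That is 28.6% in each direction, near the 27.9% higher and 28.4% lower of all genes tested. Ndufs8, a core iron-sulfur subunit, was the other one to fall, with -0.18 (SE 0.045), a call that was lost with library size only. Ndufs1 and Ndufs3 were not called and had log2 fold changes of 0.055 and -0.092.

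Apart from the core and the NDUFA4 pair, 29 genes were tested, which are accessory subunits and the pseudogene Ndufb4c. Of these, 5 (17.2%) were higher and 9 (31.0%), Ndufb4c among them, were lower. Of all genes tested, 27.9% were higher and 28.4% lower. The median log2 fold change of the 29 was -0.031. Ndufb4, a membrane arm subunit, had 10.9 and 10.7 CPM in Veh and 7.65 and 7.47 CPM in NRRA, and its groups did not overlap (log2 fold change -0.51, SE 0.11). Its processed pseudogene copy Ndufb4c was near the floor, with 18 and 12 counts under Veh and 6 and 5 under NRRA, and its log2 fold change of -1.57 (SE 0.58) lost its call in DESeq2. Stretches near-identical to another gene make up 40.2% of the longest transcript of Ndufb4 and 100% of that of Ndufb4c, so reads of this pair may be split or exchanged. Ndufc1 (-0.31), Ndufa8 (-0.29), Ndufb6 (-0.24), Ndufa5 (-0.23), Ndufa10 (-0.20) and Ndufa7 (-0.15) also fell, in log2 fold changes. Of these 6, only Ndufa8 was also called both with library size only and in DESeq2.

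Complex II, succinate dehydrogenase, is the one complex with no mitochondrially encoded subunit, and it also works in the tricarboxylic acid (TCA) cycle. Sdha, the flavoprotein that oxidises succinate, had 250 and 253 CPM in Veh and 284 and 271 CPM in NRRA (ENSMUSG00000021577, chromosome 13, 74322254 to 74350280, minus strand). The groups did not overlap, and the log2 fold change was 0.15 (edgeR adjusted p 0.00012, SE 0.029). Sdhc, a membrane anchor, had 103 and 108 CPM in Veh and 99.3 and 96.7 CPM in NRRA, a log2 fold change of -0.11 (SE 0.039) whose call was lost with library size only, with upper quartile scaling and in DESeq2. The iron-sulfur subunit Sdhb and the other anchor Sdhd were not called, with log2 fold changes of -0.037 and -0.021. Sdha, the one subunit that rose, was the most abundant of the 4 per kb of exonic length in Veh, at 60.9 CPM per kb beside 32.4 to 50.2.

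Complex III, the cytochrome bc1 complex, had 2 genes higher and 3 (37.5%) lower of 8 tested, beside 27.9% and 28.4% of all genes, or 3 higher and 2 lower with library size only, beside 34.4% and 22.7%. Uqcrq, a small subunit near cytochrome b, had 72.2 and 69.1 CPM in Veh and 52.3 and 54.1 CPM in NRRA (log2 fold change -0.41, edgeR adjusted p 4.21e-08, SE 0.048). Uqcrc1, a core subunit that faces the matrix, had 202 and 203 CPM in Veh and 168 and 165 CPM in NRRA (log2 fold change -0.28, SE 0.030). Neither gene overlapped between groups, and both stayed lower with library size only. The Rieske iron-sulfur protein Uqcrfs1 had a log2 fold change of -0.17 (SE 0.054), which lost its call with library size only, in DESeq2, without Veh replicate 1 and without NRRA replicate 1.

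The other core subunit of complex III, Uqcrc2, was not called, at 86.9 and 95 CPM in Veh and 93.5 and 93.6 CPM in NRRA. The small subunit Uqcr11 rose from 69.3 and 67.8 CPM to 83.4 and 80.4 CPM (log2 fold change 0.26, SE 0.043), and 38.4% of its longest transcript has a near-identical stretch elsewhere. Uqcrh, the hinge protein that helps cytochrome c dock, had a log2 fold change of 0.12 (SE 0.039), which lost its call in DESeq2, without Veh replicate 1 and without NRRA replicate 1. Cyc1, cytochrome c1, belongs to the same complex but not to the symbols of the rule, and it rose from 170 and 167 CPM to 209 and 205 CPM (log2 fold change 0.30, SE 0.031). The electron-carrying subunits Cyc1 and Uqcrfs1 thus had fold changes of opposite sign.

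Complex IV, cytochrome c oxidase, had 3 genes higher, 6 lower and 8 not called of 17 tested (17.6% higher and 35.3% lower, beside 27.9% and 28.4% of all genes), and 4 higher and 4 lower with library size only, beside 34.4% and 22.7%. Cox7b, a subunit needed for assembly (ENSMUSG00000031231, chromosome X, 106015700 to 106022450, plus strand), had 47.7 and 48 CPM in Veh and 31.3 and 30.4 CPM in NRRA. The groups lay far apart relative to their spread, with a log2 fold change of -0.63 (edgeR adjusted p 4.11e-10, SE 0.057), and 24% of its longest transcript has near-identical stretches in 2 pseudogenes. Cox8a and Cox7c, both small membrane subunits, had log2 fold changes of -0.22 (SE 0.038) and -0.22 (SE 0.044), and Cox4i1, Cox5a and Cox7a2 ones of -0.19, -0.15 and -0.12. The calls of Cox5a and Cox7a2 were lost with library size only and in DESeq2. Cox6a1 rose from 211 and 204 CPM to 227 and 229 CPM (log2 fold change 0.13, SE 0.030). Cox5b rose by a log2 fold change of 0.10 (SE 0.033), which was not called in DESeq2, without Veh replicate 1 or without NRRA replicate 2. Cox6b1 and Cox6c, both abundant, were not called, with 95% intervals of -0.098 to 0.048 and -0.082 to 0.091.

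In complex V, the ATP synthase, every subunit tested had a log2 fold change below 0. Of the 17, 13 (76.5%) were lower in NRRA, beside 28.4% of all genes and 41.6% of the genes whose mean log2 CPM was at least 5. None was higher, also at an unadjusted p under 0.05 and in DESeq2 (0 of 17 each), and both NRRA libraries lay below both Veh libraries for all 17. Across all genes, 38.6% had both NRRA libraries below both Veh libraries, as had 3366 of the 7003 genes whose mean log2 CPM was at least 5. DESeq2 also called 13 lower, beside 19.6% of all genes with an adjusted p in that tool, and 19.3% higher. With library size only, 10 were lower and 1, Atp5f1, was higher, beside 22.7% and 34.4% of all genes. Summed over the complex, the level was 3030 and 3057 CPM in Veh and 2585 and 2565 CPM in NRRA, a ratio of 0.846, beside 0.966, 1.03, 0.947 and 0.955 in complexes I to IV and 0.940 over all genes. Of the 17, 5 had neither an exonic overlap with another gene nor a near-identical stretch, and 4 of these were lower.

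The catalytic head and its central stalk had 5 of 5 genes lower. Atp5b, the catalytic beta subunit (ENSMUSG00000025393, chromosome 10, 128083273 to 128090391, plus strand), was the most counted member, at 986 and 987 CPM in Veh and 797 and 782 CPM in NRRA. Its 2 groups were separated by many times the spread within them, with a log2 fold change of -0.32 (edgeR adjusted p 1.57e-12, SE 0.022). Atp5c1, the gamma subunit that turns within the head, had 172 and 176 CPM in Veh and 140 and 142 CPM in NRRA (log2 fold change -0.30, SE 0.032). Near-identical stretches in 2 pseudogenes make up 37.5% of its longest transcript. The alpha, delta and epsilon subunits Atp5a1, Atp5d and Atp5e had log2 fold changes of -0.18, -0.14 and -0.24, so alpha and beta, which alternate in the head, fell by different amounts.

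The membrane ring that the protons turn is built of subunit c, which 3 genes encode. Atp5g1 (ENSMUSG00000006057, chromosome 11, 96068852 to 96075670, minus strand) had 96.3 and 92.4 CPM in Veh and 55.0 and 52.3 CPM in NRRA. Among the tested members whose mean log2 CPM was at least 5, its log2 fold change of -0.81 (edgeR adjusted p 2.43e-14, SE 0.045) was the lowest. Atp5g3 had 111 CPM in both Veh libraries and 85.8 and 87.3 CPM in NRRA (log2 fold change -0.36, SE 0.038). Atp5g2 had 37.4 and 38.3 CPM in Veh and 33.5 and 36.2 CPM in NRRA, and was not called (log2 fold change -0.12, 95% interval -0.25 to 0.0045). The intervals of the 3 genes do not overlap, although the mature protein that they encode is the same.

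The peripheral stalk, which holds the head still, had 2 of 4 tested genes lower. Atp5o, the protein that joins the stalk to the head, had 80.7 and 82.2 CPM in Veh and 64.6 and 64.9 CPM in NRRA (log2 fold change -0.33, SE 0.043). Exons of its other entry and of 2 further genes cover 47.9% of its own, so its value is less certain. Atp5h, the stalk's subunit d, fell by a log2 fold change of -0.28 (SE 0.043), and 71.3% of its longest transcript has near-identical stretches in 4 pseudogenes. Atp5f1, subunit b, was not called, at 267 and 266 CPM in Veh and 265 CPM in both NRRA libraries. Atp5j, coupling factor 6, was not called (-0.084), while Gabpa, the ETS factor gene with which it overlaps head to head over 12.7% of the exonic bases of Atp5j, rose by a log2 fold change of 0.25 (SE 0.038).

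Of the 5 small membrane subunits, Atp5md (-0.31), Atp5k (-0.24), Atp5mpl (-0.21) and Atp5l (-0.19) fell in log2 fold change, and Atp5j2 was not called (-0.089). The plot of the ATP synthase libraries shows these values against the mean of Veh. Near-identical stretches make up 86.8% of the longest transcript of Atp5l and 56.6% of that of Atp5k. Atp5d, Atp5l and Atp5mpl lost their calls with library size only. In the same comparison the fibroblast markers fell by a median log2 fold change of -0.39, and the part of the feeder cells in the lower level of complex V was not tested.

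**Figure D3:**
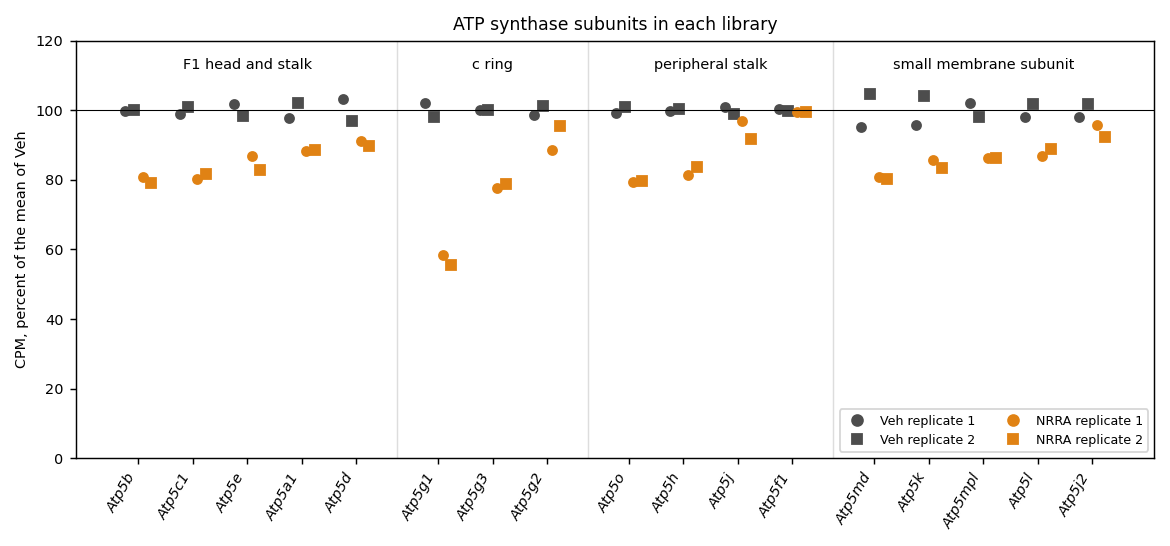
CPM of each tested ATP synthase gene in each library as a percent of the mean of its 2 Veh libraries (y axis, from 0), grouped by the place of the subunit in the complex (x axis). Grey points are Veh and orange points NRRA, and both NRRA libraries of all 17 genes lie below both Veh libraries, furthest for Atp5g1.

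Tissue isoforms were compared per kb of exonic length, which allows levels of different genes to be set side by side. The testis isoforms Cox6b2, Cox7b2 and Cox8c were all present. Cox6b2 (ENSMUSG00000051811, chromosome 7, 4751792 to 4753094, minus strand) had 17.1 and 19.7 CPM per kb in Veh and 22.9 and 24.3 in NRRA, and the groups did not overlap. Its log2 fold change was 0.35 (edgeR adjusted p 0.00035, SE 0.078), and it was the isoform with the highest log2 fold change in the 8 families. Its widespread partner Cox6b1 had 172 and 169 CPM per kb in Veh and 166 and 170 in NRRA, so that the share of Cox6b2 in the pair was 9.04% and 10.4% in Veh and 12.1% and 12.5% in NRRA.

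Cox7b2 was about as abundant as its widespread partner Cox7b, with 37.3 and 36.3 CPM per kb in Veh and 36.0 and 35.4 in NRRA beside 39.3 and 39.5 in Veh and 25.7 and 25.1 in NRRA. It was not called (log2 fold change -0.045, 95% interval -0.21 to 0.12). Because Cox7b fell, the share of Cox7b2 was 48.7% and 47.9% in Veh and 58.3% and 58.5% in NRRA. From raw counts the share was lower in every library, 29.4% ± 0.478 in Veh and 38.5% ± 0.138 in NRRA (SD, n = 2), and the order of the groups was the same. Cox8c was less abundant, with 6.84 and 9.39 CPM per kb in Veh and 10.7 and 9.21 in NRRA, so that the groups overlapped. Its log2 fold change of 0.29 (SE 0.18) was not called, although without Veh replicate 2 it was 0.54 and called. Cox8c made up 3.31% to 5.77% of its family in the 4 libraries, with nearly all of the rest from Cox8a.

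Isoforms of striated muscle were near or below the floor, apart from Cox7a1. Cox6a2 had 1 and 2 counts under Veh and 1 and 0 under NRRA, and Cox8b had 0 counts in all 4 libraries, which allows a level of up to 0.0921 to 0.111 CPM. Cox7a1 had 56 and 65 counts under Veh and 80 and 73 under NRRA, and was not called (log2 fold change 0.20, SE 0.22). It made up 2.97% to 3.62% of the COX7A family, in which Cox7a2 held 60.6% to 64.8% and Cox7a2l, which links complexes III and IV in supercomplexes, the rest. Cox7a2l was not called (log2 fold change 0.054, SE 0.048), although with library size only it was higher.

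Isoforms that low oxygen induces in other cells were scarce. Ndufa4l2 (ENSMUSG00000040280, chromosome 10, 127514967 to 127517154, plus strand), a paralogue of Ndufa4, had 56 and 54 counts under Veh and 10 and 2 under NRRA. The groups did not overlap, and the log2 fold change of -3.31 (95% interval -4.23 to -2.40, edgeR adjusted p 4.32e-07) was the lowest of all tested members, at a level of 1.94 CPM in Veh. Ndufa4, which carries a complex I symbol but is now assigned to complex IV, had 71.5 and 72.5 CPM in Veh and 64.7 and 61.1 CPM in NRRA (log2 fold change -0.19, SE 0.046), a call lost with library size only. Cox4i2, the lung isoform, had 15 and 31 counts under Veh and 12 and 18 under NRRA, so that the groups overlapped, and it was not called (log2 fold change -0.74, SE 0.45). Cox4i1 held 99.4% to 99.7% of that family in the 4 libraries.

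The shares of the 3 genes of subunit c also differed between the groups. Atp5g3 held the largest share per kb, 54.8% and 54.9% in Veh and 55.8% and 55.4% in NRRA. The share of Atp5g1 was 21.1% and 20.4% in Veh and 15.9% and 14.7% in NRRA, and that of Atp5g2 24.1% and 24.8% in Veh and 28.4% and 29.9% in NRRA. The libraries of the groups did not overlap for any of the 3 shares. With 2 libraries per group no exact test of a share can reach the threshold. The shares depend on the length used, since the longest transcript of Atp5g1 (4715 bases) is far longer than that of Atp5g3 (723 bases), and from raw counts Atp5g1 held 38.8% in Veh and 30.7% in NRRA. Per kb of the longest transcript Atp5g1 held 8.96% and 6.42%, and the order of the groups turned for Atp5g3, at 68.5% in Veh and 67.5% in NRRA.

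**Figure D4:**
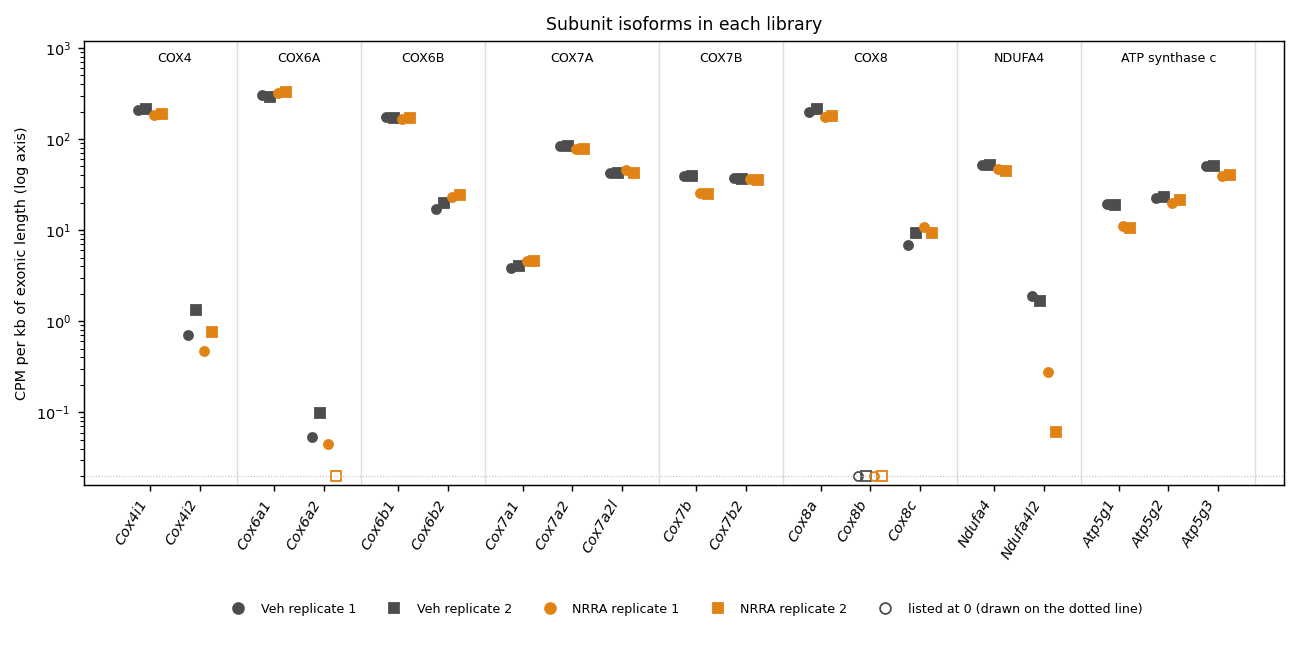
Level of each isoform in CPM per kb of exonic length (log y axis) in each of the 4 libraries, grouped by family (x axis). Grey points are Veh, orange points NRRA, circles replicate 1 and squares replicate 2, and open symbols on the dotted line mark a count of 0. Cox7b2 stays near 36 CPM per kb while Cox7b drops from about 39 to about 25, and Ndufa4l2 and Atp5g1 drop in both NRRA libraries.

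The members that could not be tested were Ndufa11b (2 and 3 counts in Veh, 1 and 3 in NRRA), Ndufs6b (2 and 1 in Veh, 1 and 5 in NRRA), Cox6a2, Cox8b and the other entry of Atp5o (ENSMUSG00000116933), which had 0 counts in every library. Ndufa11b and Ndufs6b are processed pseudogenes. The pseudogene Cox6c2 was tested and not called, with 5 to 12 counts per library. Pseudogenes and overlaps are common among these genes. Of the 84 tested members, 38 had a stretch of at least 100 bases with at least 95% identity to another gene, for 23 of them in a pseudogene, and 46 had such a stretch or an exonic overlap. Over the 38 members with neither, 9 were higher and 18 lower, beside 27.9% and 28.4% of all genes tested, whose overlaps were not searched.

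The other genes of the pathway changed in both directions, and their counts are to be read against the 27.9% higher and 28.4% lower of all genes tested. Of 15 genes of electron carriers, among them the ubiquinone synthesis genes, 7 rose and 3 fell (46.7% and 20.0%), and their median log2 fold change was 0.038. Coq8a, a kinase-like protein of ubiquinone synthesis, had 19.8 and 18.8 CPM in Veh and 39.2 and 38.2 CPM in NRRA (log2 fold change 1.01, SE 0.067). Coq3, a methyltransferase of the same pathway, went from 19.1 and 20.4 CPM to 13.1 CPM in both NRRA libraries (-0.59, SE 0.086). Somatic cytochrome c, Cycs, fell by a log2 fold change of -0.26 (SE 0.053), and 35.0% of its longest transcript has near-identical stretches. Testis cytochrome c, Cyct, had overlapping groups and was not called (0.038, SE 0.072). Of the subunits outside the rule, Ndufab1, the acyl carrier protein of complex I, Ndufb1-ps and Dmac2l were not called, with log2 fold changes of -0.0024, 0.06 and -0.23.

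Assembly factors of complexes I to IV changed in both directions. For complex I, 2 of 18 rose and 6 fell (11.1% and 33.3%), from Ecsit (log2 fold change 0.51, SE 0.059) to Ndufaf6 (-0.85, SE 0.19). With library size only 4 of these rose and 3 fell, beside 34.4% and 22.7% of all genes. For complexes II and III 1 of 10 rose and 2 fell (10.0% and 20.0%), from Lyrm7 (0.27, not called) to Uqcc2 (-0.41, SE 0.050). For complex IV, 6 of 25 tested rose and 5 fell, from Cox15, of heme a synthesis (0.56, SE 0.065), to Coa6 (-0.37, SE 0.12), whose call was lost in DESeq2. Of 6 genes that build or regulate the ATP synthase, 3 rose and 2 fell. Atpaf1 and Atpaf2, the chaperones of the beta and alpha subunits, rose from 25.2 and 23.0 to 33.6 and 33.2 CPM and from 19.2 and 19.4 to 26.2 and 29.1 CPM, log2 fold changes of 0.47 (SE 0.068) and 0.52 (SE 0.076). Fmc1, which acts with Atpaf2, also rose (0.52, SE 0.14), a call lost without NRRA replicate 2, while Tmem70 was not called and Tmem242 fell by a log2 fold change of -0.34. Atpif1, the inhibitor of the ATP synthase, had 94.4 and 90.3 CPM in Veh and 55.2 and 54.2 CPM in NRRA, a log2 fold change of -0.75 (SE 0.044) with no overlap between the groups.

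Among 14 regulators of mitochondrial biogenesis, 4 were higher and 6 lower, or 28.6% and 42.9% beside 27.9% and 28.4% of all genes tested. With library size only 7 were higher and 5 lower, beside 34.4% and 22.7% of all genes. Of the coactivators, Ppargc1b had 86 and 90 counts under Veh and 22 and 18 under NRRA (log2 fold change -2.27, SE 0.28), whereas Ppargc1a was scarce, with 18 and 10 counts under Veh and 32 and 23 under NRRA, and was not called (0.82, SE 0.43), although it was without Veh replicate 1. Of the factors whose letters were searched above, Nrf1 fell (-0.28, SE 0.044), and Gabpa and Yy1 rose (0.25 and 0.11). Myc fell (-0.84, SE 0.11). Tfam, which packages mitochondrial DNA and starts its transcription, had a log2 fold change of -0.16 (SE 0.059) that was not called with library size only or in DESeq2.

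Of 22 genes of the TCA cycle and of pyruvate entry, 5 (22.7%) were higher and 11 of the 22 lower, beside 27.9% and 28.4% of all genes tested. With library size only 7 were higher and 7 lower, beside 34.4% and 22.7% of all genes. The pyruvate dehydrogenase kinases stood at both ends. Pdk4 rose from 4.83 and 4.64 CPM to 15.6 and 16.9 CPM (log2 fold change 1.78, SE 0.12), and Pdk1 fell from 114 and 111 CPM to 64.6 and 58.4 CPM (-0.87, SE 0.045). All 13 mitochondrially encoded subunits had log2 fold changes below 0, and 11 (84.6%) were called lower, with a median of -0.33, beside 28.4% of all genes tested and 41.6% of those whose mean log2 CPM reached 5. They took 2.86% and 2.80% of the counts in Veh and 2.40% in both NRRA libraries. Their log2 fold changes ran from -0.26 (SE 0.022) for mt-Cytb to -0.90 (SE 0.29) for mt-Atp8, which had 24 to 65 counts and lost its call in DESeq2. At least 98.99% of mt-Co1, mt-Co2, mt-Co3, mt-Atp6, mt-Nd3 and mt-Nd4l, 63.6% of mt-Nd4, 52.3% of mt-Nd5 and 49.1% of mt-Nd2 has near-identical copies in other genes, so the values of these 9 genes depend on how such reads were counted.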

How the data were processed

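The authors deposited raw counts per gene for 4 libraries, 2 Veh and 2 NRRA. The submitters' processing notes name bcl2fastq, STAR 2.6.1c, featureCounts 1.6.4 and the build mm10. The annotation release, the strand setting and the treatment of reads with several matches are not given in the sources used here, so overlapping, antisense and near-identical genes may share reads. Columns were matched to samples by their descriptions, since the titles of the Veh libraries carry other numbers than the columns. Coordinates, exonic lengths and overlaps came from GENCODE M21 (GRCm38), in which all 89 members were found by identifier, and near-identical stretches from BLAST.

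From the counts, edgeR 4.0.16 (R 4.3.3) was run on the whole table with filterByExpr, TMM scaling and a robust quasi-likelihood fit, with Benjamini-Hochberg adjustment over 20232 genes and a threshold of 0.05. The script was tested on simulated data. Log2 fold changes compare NRRA with Veh, and log2 CPM used a prior count of 2. The alternatives were library size only, DESeq2 size factors, upper quartile factors, DESeq2 1.42.0, no filter, a fit that is not robust, a replicate block, leaving out each library, a wider member list and isoform shares from raw counts. Added after seeing the data were the members with no shared sequence and shares per kb of the longest transcript. The assignment of subunits to places in a complex was also written after their values had been seen.

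The members and lists were chosen with earlier results of these data known. Named were all tissue isoforms, up to 3 called genes with the highest and 3 with the lowest log2 fold changes per complex whose libraries do not overlap between groups, the ends of each list, Cyc1, Ndufab1, Ndufb1-ps, Cycs, Cyct, Ppargc1a, Nrf1, Tfam, Stra8 and each untested member. Other genes are named to account for the members of a complex or list and were chosen after their values were seen. The germ cell marker Gcna was not analysed here. Promoter windows came from RefSeq. The values of 1 tested member are not reported here.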

Additional observations from a re-analysis of the deposited data

How the results depend on the processing

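The count of higher members rose from 13 to 26 with library size only and fell to 7 in DESeq2, and the count of lower ones fell from 36 to 23 with library size only and to 18 over the members with no shared sequence, where only 38 remained. The median over members moved from -0.090 to -0.00049 with library size only, to -0.071 with upper quartile factors and to -0.11 over members with no shared sequence. For complexes I to V, in that order, the median was 0.059, 0.061, 0.034, 0.045 and -0.15 with library size only. With upper quartile factors it was -0.011 in complex I, -0.0094 in complex II and -0.22 in complex V, and with no filter -0.074 in complex IV and -0.23 in complex V. It was -0.076 in complex IV in DESeq2, and over members with no shared sequence -0.15 in complex I and -0.23 in complex III. Apart from the lower number of members, the cause of these moves was not tested. With library size only 1 gene of complex V, Atp5f1, was higher. Leaving out 1 library gave 10 to 12 higher and 30 to 35 lower members, and medians of -0.043 to 0.00082 in complex I (above 0 without NRRA replicate 1), -0.069 to -0.016 in complex III (nearest 0 without Veh replicate 2), -0.054 to -0.0035 in complex IV (nearest 0 without NRRA replicate 1) and -0.25 to -0.21 in complex V, with 13 of its genes lower each time. Where that leaves a group with 1 library, it is assumed to vary like the other group.

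Shares from raw counts in Veh and NRRA were 14.4% and 18.0% for Cox6b2, 29.4% and 38.5% for Cox7b2, 2.82% and 4.0% for Cox8c, 38.8% and 30.7% for Atp5g1, 15.6% and 19.9% for Atp5g2 and 45.6% and 49.4% for Atp5g3. Per kb of the longest transcript they were 15.1% and 18.9% for Cox6b2, 43.5% and 53.7% for Cox7b2, 8.96% and 6.42% for Atp5g1, 22.5% and 26.1% for Atp5g2 and 68.5% and 67.5% for Atp5g3, so that for Atp5g3 alone the order of the groups turned.

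Deviations of same-numbered libraries were not related (correlation -0.011 over all genes tested). With 2 libraries per group this cannot show whether the samples were paired. With the replicate block 13 members were higher and 37 lower. Over 67 named genes, no call changed direction under any of the alternatives. Over the tested members the median SE was 0.048 on the log2 scale, beside 0.10 over all genes tested, and differences of that order were not detectable with 2 libraries per group.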

Other observations

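The 3 members on the X chromosome lay at different ends of the range. Ndufa1 had the highest log2 fold change of complex I (0.74) and Cox7b the lowest among the called genes of complex IV (-0.63), while Ndufb11 had overlapping groups and was not called (0.046, SE 0.055). The members lie on 19 chromosomes in all.

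The OXPHOS genes are short, with a median exonic length of 1522 bases over the tested members beside 3475 bases over all genes tested. By share of all counts, complex V took 0.293% and 0.296% in Veh and 0.266% and 0.264% in NRRA, and complex I took 0.196% in both Veh libraries and 0.202% and 0.201% in NRRA. A share of all counts is a scaling by library size. With the TMM factors complex I summed to 2029 and 2020 CPM in Veh and 1961 and 1952 CPM in NRRA, so its direction turned with the scaling and was then that of complex V.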
